A study of Microtus ochrogaster with 40 samples.

Results

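The heat shock and DnaJ chaperones of the prairie vole (Microtus ochrogaster) were followed in single nuclei of the nucleus accumbens, a forebrain region studied for reward and for partner bonding. Every gene whose name begins with Hspa, Hspb, Hspd, Hspe, Hsph, Hsp90, Dnaja, Dnajb or Dnajc was taken, which gave 60 of 19130 genes listed. They comprise 2 genes of the Hsp90 family, 11 of the Hsp70 family (Hspa and Hsph), 7 small heat shock genes (Hspb), 2 genes for proteins that partner other chaperones but share the Hspb letters (Hspbp1 and Hspbap1), and 38 DnaJ genes in the families Dnaja (1), Dnajb (11) and Dnajc (26). The rule used gene names and no measured value. The main heat-inducible Hsp90 gene, Hsp90aa1, and Dnaja1, Dnajb1, Hspd1 and Hspe1 are not among the names taken and were not analysed here. Also absent are Hspa1a, Hspa1b and Hspa2 of the Hsp70 family, so the heat-inducible Hsp70 was not measured by name. Of 70 symbols that RefSeq lists for these families, 12 were not among the gene names. As 3807 of the 19130 genes carry only an identifier, further members may lie unnamed among them and in the background of all genes.

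Each of the 40 animals had been housed 16 days with a partner, of the other sex for mates and of its own sex for peers. The groups held 11 mates and 8 peers among females and 11 mates and 10 peers among males. Neither an age nor a strain is given in the labels used here, and no animal is described as manipulated in any other way. Each library came from the punched accumbens of 1 animal, and its droplet counts were unique molecular identifiers (UMIs), each counted as 1 captured RNA molecule. After filtering, 178387 nuclei remained, with 2917246 to 13074195 UMIs per animal. The library of male mate 2 stood apart, with 6375 of its 12519 barcodes under 500 UMIs, the lowest median depth (654 UMIs per nucleus) and the highest share of glutamate neuron-like nuclei (42.5%, against a median of 11.9% over animals). Libraries shared few barcodes: over the 780 pairs of libraries the median was 0.771% of the smaller library and the highest 2.22%, between male mate 2 and male peer 5.

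Chaperones hold unfolded or newly made proteins until they reach their shape. Hsp70 proteins bind short exposed stretches of a client, DnaJ proteins deliver clients to Hsp70 and drive its ATP cycle, Hsph and Hspa4 proteins exchange its nucleotide, and Hsp90 completes the folding of many kinases and receptors. Small heat shock proteins keep unfolded clients soluble without ATP. Some members work all the time and others are switched on by heat, oxidative damage or tissue handling. In nuclei, the counts are meant to report RNA in or attached to the nucleus, not protein. No correction was made for free RNA shared by the droplets of a library.

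Nuclei were clustered without the member genes, and 16 classes held enough animals for testing. Of these, 12 carried a name from marker genes, written here with "-like", and 4 stayed numbered, because they did not meet the naming rule. D2 and D1 medium spiny neuron-like nuclei were the most frequent (32045 and 30259). Of the D2 nuclei, 26461 lay in a cluster led by genes that include Adora2a, Penk and DRD2. The other 5584 lay in a cluster led by Cpne7, Col6a2 and Gpr6, with DRD2 among its leading genes. The D1 nuclei were led by Pdyn, Tac1 and DRD1A, which like Adora2a, Penk and DRD2 are defining genes of the main accumbens neurons. Glutamate neuron-like nuclei made up 13.2% of nuclei, although the accumbens is mainly built of GABA neurons. Levels are given in CPM, the UMIs of a gene per 1000000 UMIs in an animal's summed nuclei of a class, are compared for 1 gene between classes or animals and never between genes, and are described without a test between classes.

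Hspa8, the constitutive cytosolic Hsp70 that also strips clathrin from vesicles, was measured at 1552 ± 391.5 CPM over all nuclei (SD, n = 40). The lowest animal had 826.4 CPM (male mate 2), the median was 1461 CPM and the highest 2555 CPM (male mate 9). In such sums over all nuclei, fewer nuclei of a class that expresses a gene and less RNA per nucleus cannot be told apart. Its level was highest in cluster 19 (4730 ± 1068 CPM, SD, n = 40), followed by cluster 6 (3615 ± 588.2 CPM, n = 39), and in 37 of 39 animals cluster 19 exceeded cluster 6. Somatostatin interneuron-like nuclei had 2161 ± 590.1 CPM and other GABA neuron-like nuclei 2099 ± 476.7 CPM, neighbours in that order that lie within their spread. D1 medium spiny neuron-like nuclei were at 1367 ± 347.4 CPM, their D2 counterparts at 1363 ± 365.1 CPM, and astrocyte-like nuclei were lowest at 781.6 ± 162.0 CPM. Cluster 19 was led by genes that include Pvalb, Nefh and Sst, among them markers of several interneuron types, and cluster 6 by Stmn1, Cck and Sncb with the mitochondrial genes Atp8 and Nd4l among its 10 leading genes. The part of mitochondrial RNA in the Hspa8 level of cluster 6 was not tested. Both clusters were shallow, with a median of 837 UMIs per nucleus in cluster 19 and 889 in cluster 6. The median was 1914 in D2 and 2114 in D1 medium spiny neuron-like nuclei, and 777 in astrocyte-like nuclei, which had the lowest Hspa8. The part of depth in the order of classes, for Hspa8 and the members below, was not tested.

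Clusters 19 and 6 also held the highest levels of Hsp90ab1, Hspa9 and Hspa4, while the other members of both families had another order. Hsp90ab1, the constitutive cytosolic Hsp90, was highest in cluster 19 (2348 ± 510.5 CPM) and cluster 6 (2090 ± 386.5 CPM) and lowest in astrocyte-like nuclei (313.3 CPM), a 7.49-fold range. Hspa9, the mitochondrial Hsp70, reached 308.1 ± 74.48 CPM in cluster 19 and 209.8 ± 30.76 CPM in cluster 6. Hspa4, a nucleotide exchange factor of Hsp70, reached 573.6 ± 97.86 CPM in cluster 19 and 443.7 ± 47.57 CPM in cluster 6. Hsph1, the stress-inducible exchange factor Hsp105, was highest in cluster 6 (539.4 ± 63.94 CPM) and next in cluster 9 (420.2 ± 141.5 CPM), and its relative Hspa4l was highest in cluster 19 (395.3 ± 96.6 CPM). Dnajc6, the neuronal auxilin that recruits Hspa8 to clathrin coats, was at 334.6 ± 43.58 CPM in cluster 6 and 327.5 ± 83.62 CPM in cluster 19, a pair that does not differ beyond its spread, at 241.9 ± 60.6 CPM in oligodendrocyte-like nuclei and at 33.18 ± 11.89 CPM in astrocyte-like nuclei. Dnajc5, the cysteine string protein of synaptic vesicles, varied less, from 129.9 CPM in oligodendrocyte-like nuclei to 320.0 CPM in cluster 19. Among the 49 members whose highest class mean was at least 10 CPM, cluster 19 held the highest mean for 13 and microglia-like nuclei for 6. The like count over all genes was not made, and some of the 13 are near ties. Dnajc5 was higher in cluster 19 than in cluster 6 in 17 of 39 animals. Hspa4l was higher in cluster 19 than in cluster 18 in 19 of 36. Relative to each gene's mean over classes, the median of these 49 was 0.24 in cluster 19 and 0.03 in cluster 6 on the log2 scale, beside -0.24 and -0.18 over 13096 genes. Other neuron classes lay above cluster 6, with 0.20 in somatostatin interneuron-like, 0.17 in other GABA neuron-like and 0.16 in eccentric medium spiny neuron-like nuclei. Over all genes these were 0.05, 0.08 and -0.06. In other GABA neuron-like nuclei 35 of the 49 lay above 0, against 28 in cluster 19 and 26 in cluster 6.

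Members of the endoplasmic reticulum peaked in several classes. Hspa5 (BiP), the Hsp70 of that compartment, was highest in oligodendrocyte precursor-like nuclei (1323 ± 337.9 CPM, n = 39), next in microglia-like nuclei (1107 ± 330.8 CPM, n = 38), and lowest in glutamate neuron-like nuclei (457.9 ± 108.9 CPM). Dnajb11, its DnaJ partner, was also highest in oligodendrocyte precursor-like nuclei (233.4 ± 55.13 CPM) and next in microglia-like nuclei (155.5 ± 60.27 CPM). Hsp90b1, the Hsp90 of that compartment, was highest in microglia-like nuclei (1117 ± 335.6 CPM), with cluster 18 next at 1001 ± 258.3 CPM. Their spreads overlap, with microglia-like nuclei above cluster 18 in 23 of 34 animals. Hsp90b1 was lowest in astrocyte-like nuclei (447.6 CPM). Dnajc3, a DnaJ protein of the endoplasmic reticulum, was highest in vascular-like nuclei (406.6 ± 109.3 CPM), and Dnajb9, another, in astrocyte-like nuclei (77.91 ± 18.87 CPM).

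Other DnaJ and Hsp70 relatives had orders of their own. Dnajc1, a DnaJ protein of the endoplasmic reticulum membrane, was highest in D1 (306.2 ± 44.27 CPM) and D2 medium spiny neuron-like nuclei (291.2 ± 35.11 CPM). Their spreads over animals overlap, with D1 above D2 in 27 of 40 animals. Dnajc1 was lowest in cluster 6 (49.67 ± 22.26 CPM) and cluster 19 (29.81 ± 24.65 CPM). Hspa12a, a distant Hsp70 relative, was highest in eccentric medium spiny neuron-like nuclei (108.6 ± 22.4 CPM) and lowest in microglia-like nuclei (6.448 ± 12.09 CPM). Dnajc28 was highest in astrocyte-like nuclei (202.6 ± 72.04 CPM), 1.9 times the next class and above it in 38 of 39 animals. Dnajc9, which also binds histones, was highest in microglia-like (142.0 ± 70.01 CPM) and immature neuron-like nuclei (116.4 ± 54.98 CPM), a pair within its spread. Dnajb5 was highest in glutamate neuron-like nuclei (165.0 ± 46.17 CPM), and Dnajc12 in cluster 19 (68.0 ± 32.47 CPM) with cluster 6 next (38.48 ± 10.31 CPM).

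For 4 members the highest class mean reached at least 10 CPM and at least 2 times that of the next class. Hspa12b, an Hsp70 relative known from endothelium, had 228.3 ± 65.41 CPM in vascular-like nuclei (SD, n = 34) and 1.939 CPM in the next class, a 118-fold difference seen in 33 of 33 animals with both classes. Hspb1 (Hsp27), a small heat shock gene, had 324.8 ± 236.7 CPM in vascular-like nuclei and 13.6 ± 8.826 CPM in astrocyte-like nuclei, a 23.9-fold difference, again in 33 of 33 animals. Dnajb2 had 486.5 ± 103.2 CPM in oligodendrocyte-like nuclei, 2.71 times the 179.2 ± 59.99 CPM of their precursors, in 39 of 39 animals. Dnajb13, a DnaJ gene of ciliary and sperm axonemes, had 84.77 ± 74.19 CPM in cluster 18, led by Cfap43, Fzd5 and Gfap, and 33.89 ± 9.721 CPM in glutamate neuron-like nuclei, and was above them in 29 of 36 animals.

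Low members complete the account. Of the 60, 43 averaged at least 10 CPM over all nuclei, and no UMI was counted for Dnajb8 and Dnajc5g. None of the 7 small heat shock genes averaged 10 CPM over all nuclei, where Hspb1 had 3.905 ± 3.595 CPM (SD, n = 40). Hspa1l had 84 UMIs in all 40 animals together. It belongs to a set of near-identical Hsp70 genes, and how reads shared between such copies were assigned is not given in the sources used here.

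**Figure D1:**
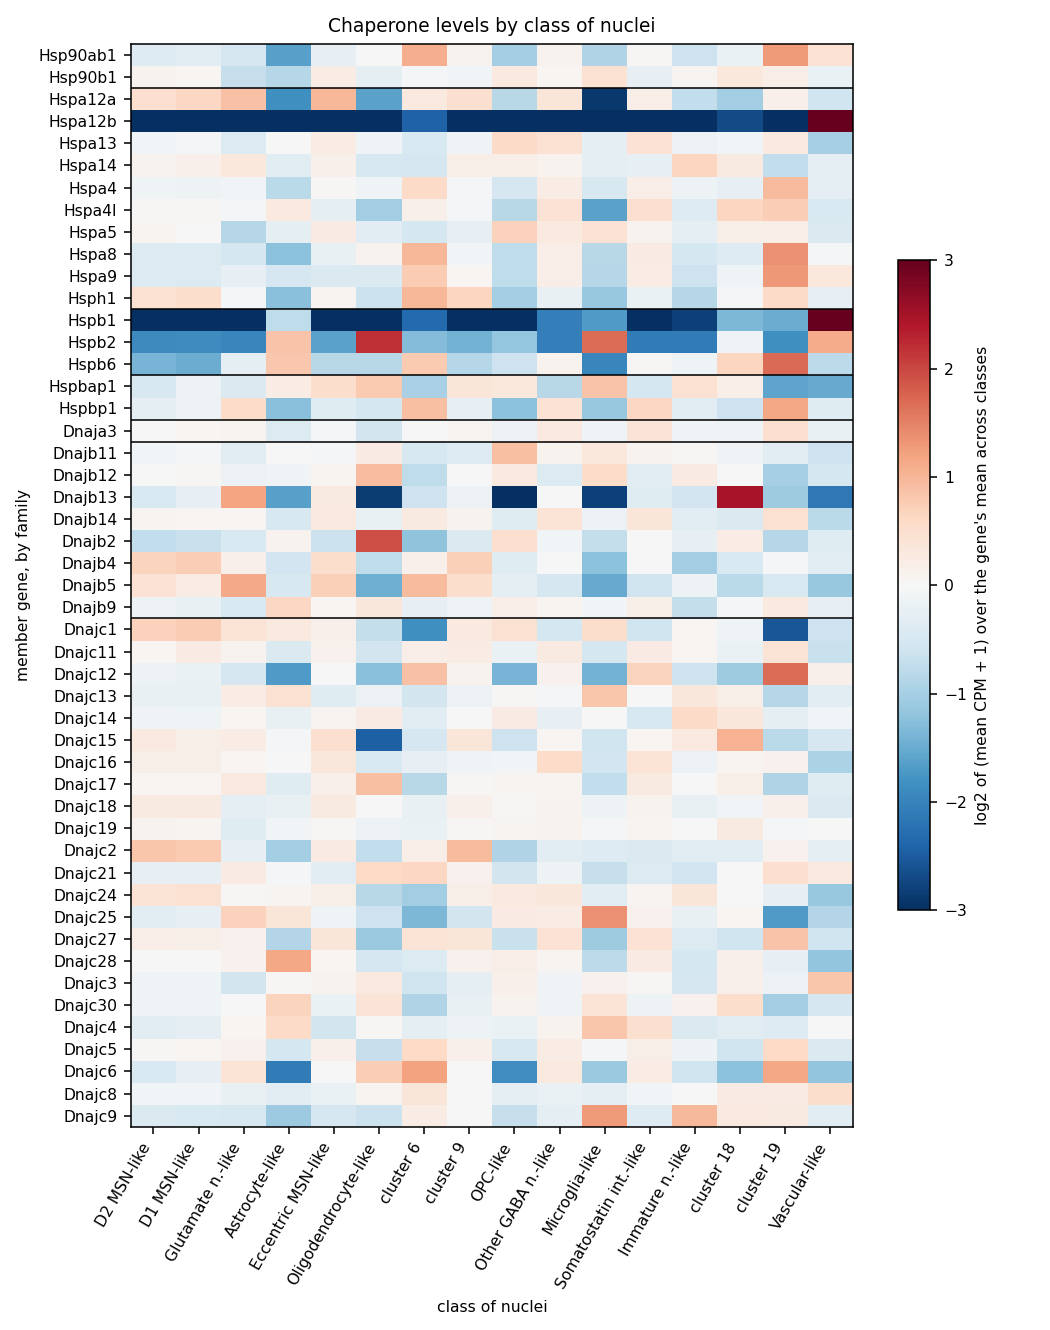
Mean level of the 49 members with a class mean of at least 10 CPM (rows, parted by family) in 16 classes of nuclei (columns), as the log2 of mean CPM plus 1 over the gene's mean across classes, with colours that end 3 units above and below 0. Hspa8, Hsp90ab1, Hspa9 and Hspa4 are highest in clusters 19 and 6, and Hspa12b and Hspb1 stand far above their mean in vascular-like nuclei.

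Animals differed in several abundant members beyond counting error. Within groups, Hsp90ab1 varied by a coefficient of variation of 29.7% over all nuclei, against 1.29% from counting alone, Hspa8 by 24.5% against 0.935%, Hspa5 by 21.2% against 1.32%, and Hsph1 by 21.3% against 2.09%. Beyond counting, Hsp90ab1 varied more than 81.6% of genes, Hspa8 more than 73.1%, Hsph1 more than 64.6% and Hspa5 more than 64.5%. Hsp90b1 varied by 20.1% beyond counting, more than 60.9% of genes. Hspa4 varied by 11.5%, more than 19.5% of genes, and Hspa4l by 5.44%, more than 0.957%. Over the 49 members that passed the filter on low counts, the median variation beyond counting was 14.0%, beside 17.4% over 13692 genes. These named members as a list thus did not vary more than genes in general. Hspb1 varied most of the members, by 89.3% beyond counting, and its highest value, 22.47 CPM in male mate 9, compares with 9.41 CPM in the next animal.

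The Hspa8 level of an animal was shared between its classes. With group means removed, the log2 level in D2 medium spiny neuron-like nuclei followed that in D1 nuclei over 40 animals with Pearson r = 0.958 and Spearman rho = 0.957 (permutation p = 1e-05 and adjusted p = 1e-05 for each, the smallest 100000 resamples can give, two-sided, adjusted over 10 pairs of classes). Without the 2 animals farthest from the median, r was 0.943. Neurons and astrocyte-like nuclei also moved together: between D2 and astrocyte-like nuclei r was 0.763 and rho 0.733 over 39 animals (permutation p and adjusted p = 1e-05 for each), and 0.678 without the 2 farthest. The lowest of the 10 pairs, glutamate neuron-like against astrocyte-like nuclei, had r = 0.655 (permutation p = 2e-05, adjusted p = 2e-05) and rho = 0.62 (permutation p = 5e-05, adjusted p = 5e-05), and 0.602 without the 2 farthest. Library numbers stand in the labels, and were parted into blocks of 10 in their order as the only hint of a batch. Within blocks r ranged from 0.888 to 0.988 for D2 against D1, from 0.266 to 0.93 for D2 against astrocyte-like, and from 0.081 to 0.914 for glutamate neuron-like against astrocyte-like nuclei. The relations that involve astrocyte-like or glutamate neuron-like nuclei were lowest in the block of the highest numbers. All classes of an animal come from the same library, and the part of free RNA shared by its droplets was not tested.

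**Figure D2:**
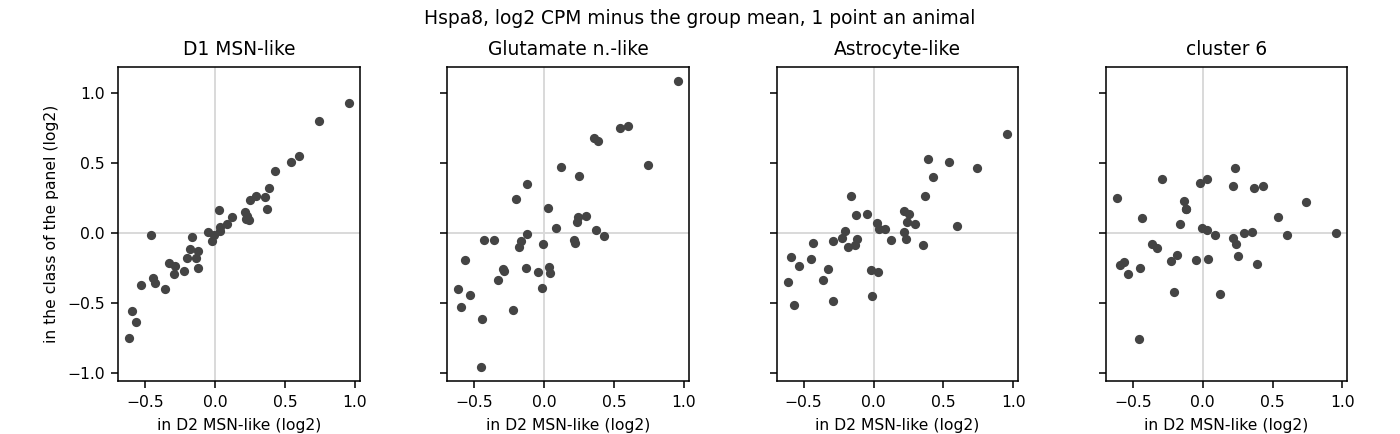
Hspa8 in D2 medium spiny neuron-like nuclei (x axis, log2 CPM minus the mean of the animal's group) against the same in D1 medium spiny neuron-like, glutamate neuron-like and astrocyte-like nuclei and in cluster 6 (y axis of each panel, same unit), 1 point an animal. Points lie close to a line for D1 (r = 0.958), more loosely for glutamate neuron-like (r = 0.791) and astrocyte-like nuclei (r = 0.763), and most loosely for cluster 6, where the fitted slope did not pass the test.

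Such agreement between classes was not particular to chaperones. For each of the 7056 genes tested in all 5 largest classes, the median r over the 10 pairs of classes was taken as a description, since classes of an animal share a library. It was 0.347 over all genes and 0.326 over the 38 members among them, and it exceeded 0.5 for 24.3% of genes and for 14 of the 38 members (36.8%). Single members stood high in this order: Hspa5 (0.82), Hsp90ab1 (0.803), Hsp90b1 (0.794) and Hspa8 (0.789) each lay above 98% of genes, and Hspa4 (0.721) and Hsph1 (0.68) above 95.6% and 93.3%. Dnaja3, a mitochondrial DnaJ, was lowest of the members (0.0192).

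To ask which members moved with Hspa8, the count of each gene in a class was fitted on the animal's Hspa8 level in the other classes, with groups as terms (edgeR's quasi-likelihood test). A slope of 1 means that the gene changed by 1 log2 unit per log2 unit of Hspa8, and a pair of a gene and a class was called at a Benjamini-Hochberg adjusted p under 0.05 over all 95894 such pairs. Of the 479 member and class pairs tested (47 members), 76 were called (15.9%), beside a background of 7.8% over all genes. Pairs of 1 gene in several classes rest on the same animals and libraries, so here and below they are not independent observations. Of the 76 calls, 14 fell on Hspa8, 9 each on Hsph1 and Hspa5, and 8 on Hsp90ab1. Hsp90b1 and Hspa9 held 7 each and Hspa4 6, and most members were called in no class. The background was not matched to the members for level. Without Hspa8 itself, 62 of 463 member pairs were called (13.4%), beside 7.79% of the pairs of all other genes. Of the 76, 69 had a positive slope, where the background is 4.77%, and 7 a negative slope, where it is 3.04%. At an unadjusted p under 0.05 there were 139 member pairs, where the background is 21.6%. The median slope was 0.097 over member pairs and -0.015 over all pairs.

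Hspa8 itself was called in 14 of 16 classes, with a median slope of 1.055. It rose most steeply with the other classes in cluster 9 (1.35 ± 0.24, SE, adjusted p = 0.000111) and glutamate neuron-like nuclei (1.34 ± 0.13, adjusted p = 7.15e-09). Male mate 2, the animal with the lowest Hspa8, held 20.8% of the nuclei of cluster 9 and 65.6% of those in cluster 17, a cluster of the glutamate neuron-like class; without it Hspa8 was called in 14 classes with a median slope of 1.08. The 2 exceptions were the classes with the highest Hspa8, cluster 6 (0.26 ± 0.14, adjusted p = 0.302) and cluster 19 (0.10 ± 0.18, adjusted p = 0.817). No member was called in either of these classes, where 0.605% and 0.294% of all genes were called.

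Hsph1 was called in 9 of 16 classes (median slope 0.73), with the steepest slope in vascular-like nuclei (1.80 ± 0.40, SE, adjusted p = 0.00301) and 0.86 ± 0.09 in the D2 class (adjusted p = 1.53e-08). Hspa4 was called in 6 of 16 classes, all of them neuron classes, and Hspa9 in 7 of 13 classes, where oligodendrocyte-like nuclei (0.67 ± 0.21, adjusted p = 0.0369) were the only class that is not neuronal. Hsp90ab1 was called in 8 of 16 classes (median slope 0.68), among them astrocyte-like nuclei (0.56 ± 0.18, adjusted p = 0.0422). Of the members in the endoplasmic reticulum, Hspa5 was called in 9 of 16 classes (median slope 0.60) and Hsp90b1 in 7 of 16 (median slope 0.48), while Dnajb11 was called in 1 of 15, glutamate neuron-like nuclei, Dnajc3 in 1 of 16, Hspa13 in 0 of 10 and Dnajb9 in 0 of 9. With blocks of 10 library numbers as a term Hspa5 and Hsp90b1 were called in 1 class each, with median slopes of 0.27 and 0.19, and Dnajb11 in 0 with 0.09.

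Most DnaJ genes did not pass the test in any class. Dnajc6 was called in 3 of 11 classes, with slopes of 0.51 ± 0.14 in glutamate neuron-like, 0.67 ± 0.17 in eccentric medium spiny neuron-like and 0.79 ± 0.19 in somatostatin interneuron-like nuclei (adjusted p = 0.0196, 0.00816 and 0.00533). Dnajc12, Dnajc3 and Dnajc5 were each called once with a positive slope. Dnajc1, a DnaJ protein of the endoplasmic reticulum, fell as Hspa8 of the other classes rose, in D2 (-0.36 ± 0.09, adjusted p = 0.00674), D1 (-0.37 ± 0.10, adjusted p = 0.0107) and eccentric medium spiny neuron-like nuclei (-0.49 ± 0.12, adjusted p = 0.00595). Dnajb12, Dnajc17 and Dnajc25 were each called once with a negative slope. With depth and mitochondrial share as covariates 0 member pairs were called with a negative slope, and the median slope of Dnajc1 over its 14 classes was -0.22, against -0.37 without them. Hspa4l was called in 2 classes with opposite signs, 0.34 ± 0.09 in eccentric medium spiny neuron-like and -0.995 ± 0.263 in immature neuron-like nuclei (adjusted p = 0.0138 and 0.0116). Hspb1, tested in vascular-like nuclei alone, had a slope of 1.29 ± 0.37 (adjusted p = 0.022), but its slope was -0.09 and not called without female mate 9 and male mate 9, and 0.81 and not called with blocks of 10 library numbers as a term.

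**Figure D3:**
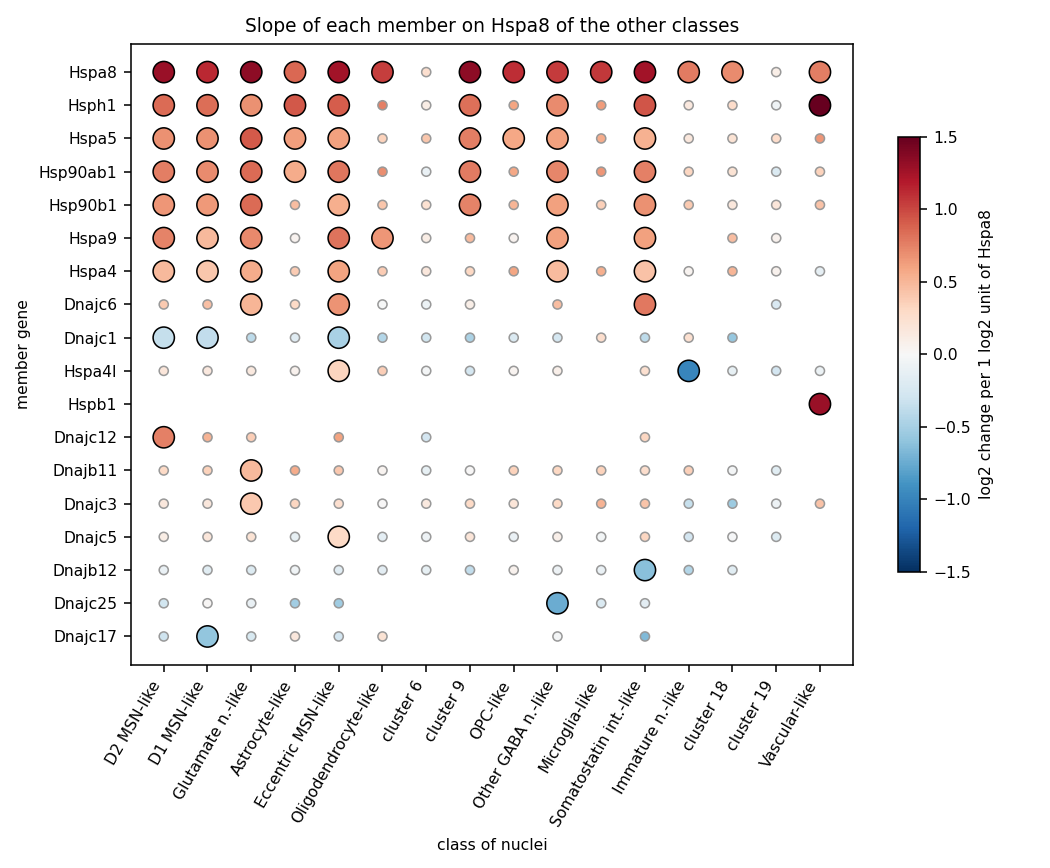
Slope of the 18 members called in at least 1 class (rows) on the Hspa8 level of the animal's other classes, in each class tested (columns). Colour gives the log2 change per 1 log2 unit of Hspa8 and ends at -1.5 and 1.5, and large outlined points are called at an adjusted p under 0.05. Hspa8, Hsph1, Hspa5 and Hsp90ab1 fill 14, 9, 9 and 8 classes, and clusters 6 and 19 hold no large point.

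For the other gene lists, the counts of called pairs are to be read beside the background of 4.77% for positive and 3.04% for negative slopes. Of the chaperonin TRiC, the ring that folds actin and tubulin, 46 of 109 gene and class pairs were called, all with positive slopes (median 0.46), among them Cct8 and Cct2 in 9 classes each. Of the co-chaperones of Hsp70 and Hsp90, 54 of 279 pairs were called and 53 were positive (median 0.26), led by Stip1, the adaptor that hands clients from Hsp70 to Hsp90, in 9 of 13 classes. Of the list of other endoplasmic reticulum chaperones and stress genes, 30 of 139 pairs were called, all positive (median 0.36), with Calr in 9 of 16 classes. This list also holds transcription factors such as Atf4 and Ddit3, while Hyou1 and Sil1 stand among the co-chaperones. Of the cold-inducible RNA-binding proteins, Cirbp and Rbm3 were each called in 7 classes with a negative slope (14 of 29 pairs, median -0.58). Of the heat shock factor list, 5 of 28 pairs were called and all were of Hsbp1, which binds the factor Hsf1. Hsf1 itself had a median slope of -0.20 over 11 classes and was not called. Of the other small heat shock and collagen chaperones, 2 of 9 pairs were called, both of Cryab with positive slopes, in oligodendrocyte-like nuclei (1.34 ± 0.25, adjusted p = 0.000415) and in cluster 6 (1.498 ± 0.428, adjusted p = 0.0207). Of the immediate early genes, which follow neuronal activity, 1 of 79 pairs was called, Npas4 with a negative slope.

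The genes most like Hspa8, by the number of classes called and then the median slope, were ENSMOCG00000020253 (12 of 16 classes, median slope 1.104) and Ywhae (12 of 16, 0.67), followed by Mif (11 of 16, 0.92), ENSMOCG00000018482 (11 of 16, 0.83) and ENSMOCG00000020316 (11 of 16, 0.74). The files pair no symbol with the 3 identifiers, so whether any of them is a chaperone is not known.

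The mean Hspa8 level over an animal's classes correlated with the mean mitochondrial share of its nuclei (r = 0.513, permutation p = 0.00075, adjusted p = 0.009; rho = 0.587, permutation p = 7e-05, adjusted p = 0.00084; n = 40, adjusted over 12 relations). Without the 2 animals farthest from the median r was 0.602, and within blocks of 10 library numbers it ranged from 0.35 to 0.731. With the share of nuclei in cluster 6, r was 0.345 (permutation p = 0.0332, adjusted p = 0.16) and rho 0.555 (permutation p = 0.00035, adjusted p = 0.0021), and r was 0.444 without the 2 farthest and 0.397 to 0.645 within blocks. With the median UMIs per nucleus r was 0.0293 (permutation p = 0.853, adjusted p = 0.931) and rho -0.202 (permutation p = 0.209, adjusted p = 0.501), and r -0.289 without the 2 farthest and -0.542 to 0.265 within blocks. With the share of glutamate neuron-like nuclei r was -0.205 (permutation p = 0.2, adjusted p = 0.4) and rho 0.0861 (permutation p = 0.596, adjusted p = 0.715), and r was -0.0732 without the 2 farthest and -0.588 to 0.478 within blocks. For Hsp90ab1 and Hspa5 none of the 8 relations with these 4 measures passed the adjustment. With depth and mitochondrial share as covariates, 48 member and class pairs were called in place of 76, where the background is 1.51%, and Hspa8 was called in 13 classes, Hsph1 and Hspa5 in 8 each, Hsp90ab1 in 1 and Dnajc6 in 0. The median slopes with these covariates were 0.57 against 0.68 for Hsp90ab1, 0.31 against 0.39 for Dnajc6, 0.82 against 0.60 for Hspa5 and 0.29 against 0.48 for Hspa9, so that calls were lost at slopes of similar size for Hsp90ab1 and Dnajc6. With blocks of 10 library numbers as a term 54 pairs were called, where the background is 4.95%, and Hspa8 was called in 13, Hsph1 in 10 and Hsp90ab1 in 9. The part of the cluster 6 share in these slopes was not tested.

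The index gene mattered. With Hspa5 in place of Hspa8, 41 member and class pairs were called, where the background is 1.06%, among them Hsp90b1 in 14 classes, Hspa5 in 13, Hspa8 in 4, Hsph1 in 1 and Hsp90ab1 in 0. With Hsph1, 27 pairs were called, where the background is 0.496%, among them Hspa8 and Hsp90ab1 in 7 classes each and Hspa5 and Hsp90b1 in 0. With Hsp90ab1, 15 pairs were called, where the background is 0.0553%, of which 13 were Hsp90ab1 itself and the other 2 Hsph1. Hsp90b1 as index was not fitted. The counts of pairs under each index, Hsph1 among them, include those of the index gene itself. The same holds for the alternatives run with Hspa8. Their share beside the background is thus not one for the other members alone.

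The count of calls depended on the 2 animals with the highest Hspa8 level averaged over classes. Male mate 9 and female mate 9 lay 0.73 and 0.56 above the average of this measure on the log2 scale, while over all nuclei female mate 6 (2383 CPM) lay between male mate 9 (2555 CPM) and female mate 9 (2325 CPM). Male mate 9 was the highest of 40 animals over all nuclei for Hspa8, Hsph1, Hsp90ab1, Hspa5, Hspa4, Dnajc12 and Hspb1. Its Hsph1 level was 613.7 CPM and that of female mate 9 was 463.7 CPM, against a median of 302.9 CPM. Without both animals 40 pairs were called, of which 37 were among the 76, beside a background of 5.31%, and Hspa8 was called in 11 classes, Hsph1 in 4, Hspa5 and Hsp90ab1 in 3 each, Hsp90b1 in 4 and Dnajc6 in 0. Dnajc1 was called in 2 classes with a negative slope, and Dnajb11, Dnajc3, Dnajc5, Dnajc12, Dnajb12, Dnajc17 and Dnajc25 were called in none. The slopes did not all shrink with the calls: without both animals the median slope over classes was 0.38 against 0.73 for Hsph1 and 0.40 against 0.60 for Hspa5, but 0.98 against 1.06 for Hspa8, 0.56 against 0.48 for Hspa9, 0.34 against 0.31 for Dnajb11 and -0.37 under both for Dnajc1. Without male mate 2, 73 pairs were called, where the background is 7.63%.

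Male mate 9 and female mate 9 carry the library numbers 28 and 27. Consecutive numbers (1 and 2, 3 and 4, and so on) gave 20 couples that match the pairing labels, 11 of a female and a male mate, 4 of female peers and 5 of male peers. The labels do not say which animals lived together, so couples here are couples of library numbers only. Differences between couples within groups were tested against differences inside couples, with 17 and 19 degrees of freedom (edgeR's quasi-likelihood test). Over all nuclei 3 of 49 members were called (6.12%), beside a background of 2.35% over 13692 genes, and all 3 belong to the endoplasmic reticulum. Dnajc1, Dnajc3, Dnajb9 and Hspa13 of that compartment were also tested and were not called. At an unadjusted p under 0.05 there were 13 members, where the background is 22.8%. DESeq2 called 13 of 49 members (26.5%), beside a background of 21.4%.

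Dnajb11 had the highest F value (6.03, adjusted p = 0.014), and its couple means ran from 88.94 to 138.1 CPM. Hspa5 had F = 5.77 (adjusted p = 0.0165) with couple means from 516.3 CPM in couple 2 to 1080 CPM in couple 14, whose animals had 1044 and 1117 CPM. Hsp90b1 had F = 5.51 (adjusted p = 0.0173) with couple means from 498.9 CPM in couple 2 to 1036 CPM in couple 14. Hspa8 (F = 3.66, adjusted p = 0.0602) and Dnajc6 (F = 3.53, adjusted p = 0.0656) did not pass. Within classes 12 of 479 member pairs were called (2.51%), beside a background of 0.453%: Hspa5 in 6 classes, Hsp90b1 in 4, Hsph1 in vascular-like nuclei and Hspa8 in cluster 9. Of the list of other endoplasmic reticulum chaperones and stress genes 5 of 11 were called over all nuclei (Calr, Manf, Pdia4, Pdia6 and Sdf2l1), beside the same background of 2.35%. With depth and mitochondrial share as covariates 4 of the 11 were called (background 0.672%), without couple 14 it was 3 (background 1.36%), and with blocks of 10 library numbers as a term 0 (background 0.146%). Calls also fell outside that list, on Cct8 (1 of 7 TRiC genes), Nr4a1 (1 of 12 immediate early genes) and Rbm3 (1 of 2 cold-inducible genes). With blocks as a term, or with depth and mitochondrial share as covariates, none of these 3 was called over all nuclei. Without couple 14 Nr4a1 was called, and Cct8 and Rbm3 were not. Within classes, where the background is 0.453%, 11 of 140 pairs of the endoplasmic reticulum list and 4 of 79 of the immediate early genes were called, the latter Nr4a1 in 3 classes and Btg2 in 1; with blocks these counts were 0 and 1. Of the 25 co-chaperones tested, edgeR called 0, and 10 had an unadjusted p under 0.05, where the background is 22.8%. For the TRiC genes 6 of 7 had one.

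These levels also followed the order of library numbers. Hspa5 averaged 631.0 ± 127.4 CPM in the first block of 10 numbers, 685.1 ± 108.5 CPM in the second, 897.3 ± 132.3 CPM in the third and 833.0 ± 109.9 CPM in the fourth (SD, n = 10 each). Hsp90b1 averaged 636.2 ± 134.7, 688.8 ± 104.2, 859.3 ± 120.7 and 835.9 ± 111.5 CPM, and Dnajb11 averaged 105.6 ± 14.33, 107.5 ± 12.1, 126.9 ± 9.904 and 123.7 ± 11.42 CPM in the same blocks. The lower levels thus lie in library numbers 1 to 20, in blocks whose ranges overlap those of the later numbers. The mean difference inside couples was 59.3% of that between unrelated numbers for Hspa5, and 52.1% between neighbouring numbers of different couples; it was 59.0% and 60.0% for Hsp90b1 and 48.4% and 68.6% for Dnajb11. The medians were 90.9% and 93.6% over the 49 members and 92.6% and 95.1% over all genes. With blocks as a term, 0 of 49 members were called over all nuclei, where the background is 0.146%, and 0 of 479 within classes, where it is 0.0238% (adjusted p = 0.113 for Dnajb11, 0.153 for Hsp90b1 and 0.265 for Hspa5). The couples lie inside the blocks, so the order of numbers and the couples are partly confounded, and what the library numbers record is not given. With depth and mitochondrial share as covariates 2 members were called over all nuclei, where the background is 0.672%, and 10 pairs within classes, where it is 0.307%, and Hsp90b1 had an adjusted p of 0.0543 over all nuclei. Without couple 14, Dnajb11 and Hspa5 were called over all nuclei, where the background is 1.36%, and Hsp90b1 was not (adjusted p = 0.053), and 3 pairs were called within classes, where the background is 0.407%. Without male mate 2, the same 3 members were called over all nuclei, where the background is 1.59%, and 7 pairs within classes, where it is 0.302%. Without a filter on low counts 28 of 759 pairs were called within classes, where the background is 1.19%.

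**Figure D4:**
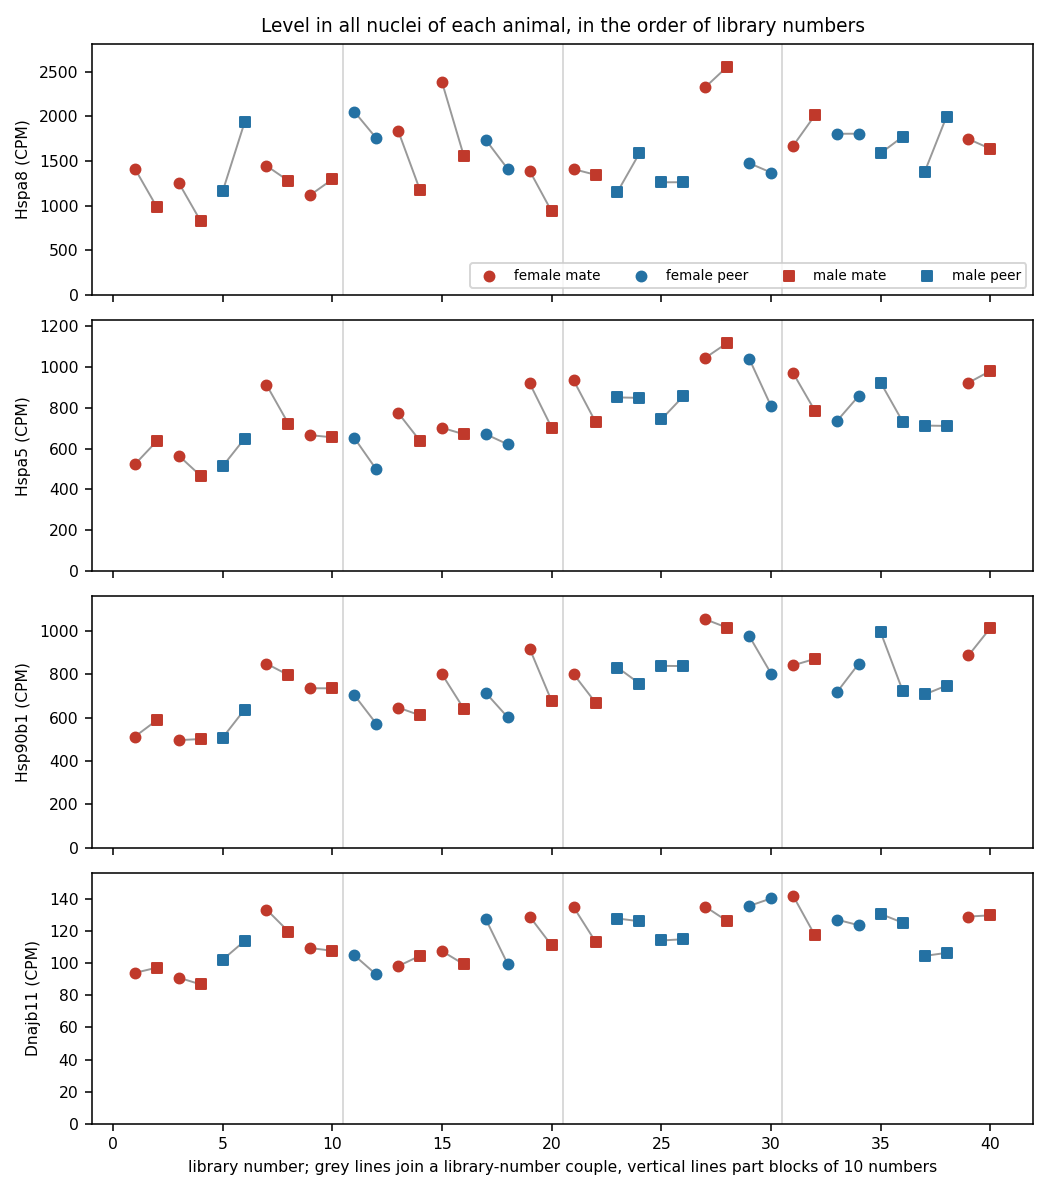
Level of Hspa8, Hspa5, Hsp90b1 and Dnajb11 over all nuclei (y axis, CPM, from 0) of each of 40 animals in the order of library numbers (x axis). Circles are females and squares males, red are mates and blue peers, grey lines join a couple, and vertical lines part blocks of 10 numbers. Hspa5, Hsp90b1 and Dnajb11 average lower in the first 20 numbers, and couple 14 (numbers 27 and 28) is highest for Hspa5, with couple means up to 1080 CPM.

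Between pairing types no member passed the test. Over all nuclei 0 of 49 members were called (edgeR's quasi-likelihood test, and also DESeq2), beside a background of 0% (0 of 13692 genes), and 2 members had an unadjusted p under 0.05 in edgeR, where 6.66% of genes did. That count was 8 of 49 with depth and mitochondrial share as covariates (5.54% of genes) and 5 of 49 without couple 14 (6.89% of genes), with 0 adjusted calls in both. Pairing and library order are partly confounded: mates make up 8 of the 10 animals in the first block of library numbers, 6 in the second and 4 in each of the others. Both animals of a library-number couple have the same pairing type, and the test took each animal as independent. Hspa8 ran from 826.4 to 2555 CPM with a median of 1294 in male mates and from 1154 to 1997 CPM with a median of 1481 in male peers, and from 1119 to 2383 CPM with a median of 1446 in female mates and from 1370 to 2053 CPM with a median of 1746 in female peers. The groups overlapped over most of their range, and mates differed from peers by -0.06 ± 0.12 on the log2 scale (SE, adjusted p = 0.915). Hsp90ab1 differed by 0.07 ± 0.13 (adjusted p = 0.894), Hspa5 by 0.06 ± 0.10 (adjusted p = 0.901), Hsph1 by 0.12 ± 0.09 (adjusted p = 0.768) and Hspa9 by -0.14 ± 0.09 (adjusted p = 0.748). Without couple 14 the values were -0.156 for Hspa8, -0.004 for Hsp90ab1, -0.007 for Hspa5, 0.012 for Hsph1 and -0.173 for Hspa9. With depth and mitochondrial share as covariates they were 0.111, 0.271 ± 0.117, 0.060, 0.227 ± 0.088 and 0.003 in the same order. With blocks of 10 library numbers as a term, Hspa5 differed by 0.21 ± 0.07 (unadjusted p = 0.00662, adjusted p = 0.86), Hsp90b1 by 0.16 ± 0.08 against 0.02 ± 0.10 without the term, Dnajb11 by 0.04 ± 0.06 against -0.04 ± 0.07, and Hspa8 by 0.03 ± 0.11, and 0 of 49 members passed.

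The lowest p values were those of Dnajc4 (-0.16 ± 0.07, SE), Dnajc18 (-0.13 ± 0.06), Dnajc12 (-0.17 ± 0.09) and Dnajb5 (0.14 ± 0.07), each with an adjusted p of 0.724, and of Dnajb9 (-0.12 ± 0.07, adjusted p = 0.732). Dnajc18 ran from 65.54 to 86.81 CPM (median 78.37) in female mates and from 66.89 to 104.8 CPM (median 91.98) in female peers, and from 50.66 to 94.49 CPM (median 82.84) in male mates and from 65.82 to 89.68 CPM (median 83.14) in male peers, so that the groups overlapped in both sexes. The members' changes lay between -0.33 (Hspb6) and 0.17 (Hspb1), 46 of 49 lay within 0.25 of 0, the median was -0.02 and the median SE 0.07, beside a median of -0.01 over all genes. The change of Hspb1 was -0.19 ± 0.25 without couple 14, and 0.40 ± 0.31 with depth and mitochondrial share as covariates.

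Within classes 0 of 479 member pairs were called, beside a background of 0%, in edgeR and in DESeq2, and 25 had an unadjusted p under 0.05, where the background is 4.95%. That count was 41 with blocks of library numbers as a term, where it is 4.58%, and 36 with the covariates, where it is 5.43%, with 0 adjusted calls in both. The lowest p was that of Hsp90ab1 in astrocyte-like nuclei, higher by 0.30 ± 0.11 in mates (adjusted p = 0.97), where mates ran from 231.8 to 582.2 CPM (median 334.7, n = 21) and peers from 172.4 to 451.5 CPM (median 267.7, n = 18). In microglia-like nuclei Hsp90ab1 ran from 380.5 to 1046 CPM in mates (median 560.0, n = 21) and from 180.9 to 940.1 CPM in peers (median 398.3, n = 17), a value of 0.43 ± 0.16. It had 0.35 ± 0.13 in immature neuron-like nuclei, and Dnajc18 of -0.35 ± 0.13 and Dnajc13 of 0.29 ± 0.11 in oligodendrocyte-like nuclei (each adjusted p = 0.97). None of these differences passed the adjustment.

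No member passed in either sex. Within females 0 of 49 members were called (edgeR and DESeq2) and 2 had an unadjusted p under 0.05, Dnajc18 (-0.20 ± 0.09) and Dnajc4 (-0.21 ± 0.10, adjusted p = 0.646 for both), where 7.53% of genes had one. With depth and mitochondrial share as covariates 8 members had one (9.6% of genes), and within classes 39 pairs in place of 18 (6.52% of all pairs), with 0 adjusted calls. Within males 0 were called (edgeR and DESeq2) and 0 had an unadjusted p under 0.05, where 1.34% of genes had one. The background of adjusted calls is 0% in both sexes. The difference of the pairing effect between the sexes gave 0 of 49 calls beside a background of 0% in edgeR and DESeq2, and 1 member with an unadjusted p under 0.05, where 1.99% of genes had one: Dnajb4 (0.26 ± 0.11, adjusted p = 1). Within classes 0 of 479 pairs were called in females, in males or for their difference; 18, 14 and 14 had an unadjusted p under 0.05, where the background is 4.92%, 2.91% and 2.85%.

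Between females and males 0 of 49 members were called, beside a background of 0.0219% (3 genes), or 0.0365% with DESeq2, which also called 0 members. These tests did not pair the female and the male of a mate couple. An unadjusted p under 0.05 was found for 5 members and 7.97% of genes, and without couple 14 for 9 members and 10.3% of genes. The lowest was Dnajc15, an inner-membrane DnaJ protein of mitochondria, lower in females by 0.28 on the log2 scale (-0.28 ± 0.07, SE, adjusted p = 0.413). It ran from 20.95 to 36.68 CPM in female mates, 29.22 to 37.11 in female peers, 25.21 to 48.65 in male mates and 28.24 to 48.56 in male peers, with overlap throughout. Dnajc28 (-0.22 ± 0.07), Dnajc2 (0.21 ± 0.07), Dnajc19 (-0.13 ± 0.05) and Dnajc25 (-0.16 ± 0.07) followed, with adjusted p from 0.526 to 0.614. Within classes 0 of 479 pairs were called, beside a background of 0.0198%, and 28 had an unadjusted p under 0.05, where the background is 5.13% (42 without couple 14, where it is 5.85%); Dnajc15 in eccentric medium spiny neuron-like nuclei was lowest (-0.43 ± 0.11, adjusted p = 0.478). Of the 7 other gene lists, 0 genes were called by edgeR for pairing or for sex over all nuclei, and for pairing 2 of 25 co-chaperones and 1 of 4 heat shock factors had an unadjusted p under 0.05, where the background is 6.66%. For sex 2 of 25 co-chaperones, 1 of 2 other small heat shock and collagen chaperones and 1 of 11 genes of the endoplasmic reticulum list had one, where the background is 7.97%. For pairing within classes 0 pairs of these lists were called, and among the cold-inducible genes 5 of 29 pairs had an unadjusted p under 0.05, where the background is 4.95%. For sex within classes 0 pairs of the lists were called, and among the immediate early genes 16 of 79 pairs had an unadjusted p under 0.05, where the background is 5.13%.

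**Figure D5:**
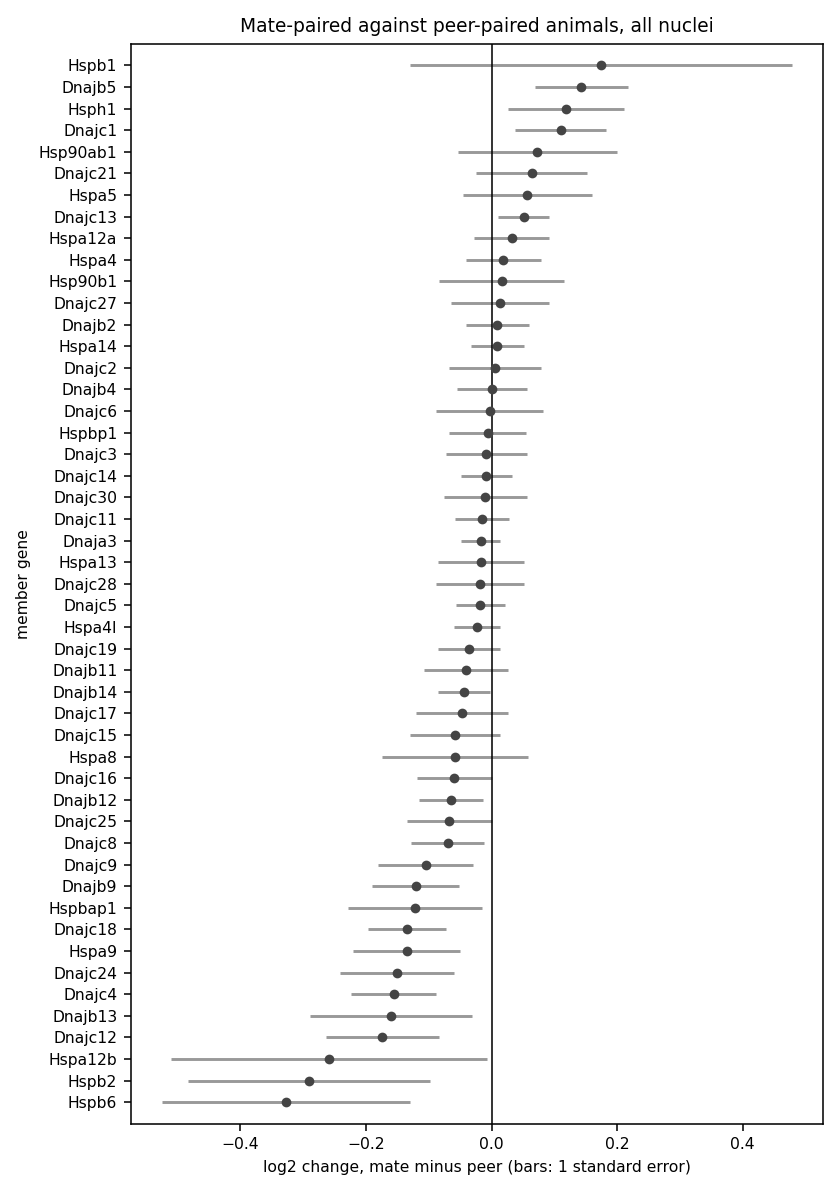
Log2 change of the 49 members tested over all nuclei (rows, in order of the change), mate minus peer (x axis), with bars of 1 standard error. The points run from -0.33 for Hspb6 to 0.17 for Hspb1, 46 of them lie within 0.25 of 0, and none passed the test. Without couple 14, which the figure includes, the value of Hspb1 was -0.19.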

How the data were processed

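The deposited files hold raw UMI counts per gene and barcode for 40 libraries, made by the authors with Cell Ranger 3.1.0, per the submitters' processing notes; aligner settings, genome build and annotation are not given in the sources used here. Barcodes under 500 UMIs, or with more than 5% of their UMIs in 13 mitochondrial genes, were left out, and the barcodes with the highest doublet scores were removed, at a rate that grew with the barcodes of a library (7608 in all). Nuclei were clustered (2000 variable genes without the members, 30 principal components, 15 neighbours, Leiden resolution 1) into 29 clusters and named from marker lists by a scoring set after the clusters were seen; 87.2% of nuclei lay in named classes. Counts were summed per animal and class with at least 20 nuclei, in classes with at least 6 animals a group, and tested with edgeR 4.0.16 (TMM, quasi-likelihood, Benjamini-Hochberg over all genes, or all gene and class pairs) in R 4.3.3, with DESeq2 1.42.0 as an alternative. The scripts were tested on simulated data. The animal was the replicate, and the tests of pairing and sex held no couple terms. The labels do not say whether animals of a couple are independent. For Dnajb11, Hspa5 and Hsp90b1, which were called in the couple test, the standard errors for pairing may be too small.

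Hsp90aa1 was the first choice as index gene of the co-variation tests, with Hspa8 as its replacement; since Hsp90aa1 was not among the gene names, Hspa8 was used. The named members are those of a list of main chaperones, up to 5 with the lowest p in each comparison, up to 8 with the most classes called, and those highest in 1 class by at least 2 times. The members, the gene lists and these rules were chosen with earlier results of these data known. RefSeq symbols of the assembly MicOch1.0 matched 58 of the 60 members. Alternatives were another scaling (RLE), no filter on low counts (a total of at least 10), doublets kept, at least 50 nuclei, depth and mitochondrial share as covariates, blocks of 10 library numbers, male mate 2 left out and, chosen after seeing the data, other index genes and the couple of numbers 27 and 28 left out.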

Additional observations from a re-analysis of the deposited data

How the results depend on the processing

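No member was called for pairing, within a sex, for the interaction or for sex under any alternative run. Couples over all nuclei gave 3 called members, 0 with the replicate block of 10 library numbers and 13 with DESeq2, which called 21.4% of all genes. Within classes the 12 called pairs became 0 with the replicate block, 28 without a filter on low counts (of 759 tested in place of 479, all 12 kept), 7 without male mate 2 and 3 without the couple of numbers 27 and 28. The 76 co-variation pairs became 48 with depth and mitochondrial share as covariates (46 of them shared), 40 without that couple, 15 with Hsp90ab1 as index, 27 with Hsph1 and 41 with Hspa5; with the replicate block they were 54. With Hspa5 as index Hsp90b1 was called in 14 classes and Hspa8 in 4, and with Hsp90ab1 as index Hspa8 was called in 0. All 10 correlations of Hspa8 between classes passed with at least 50 nuclei, without male mate 2 and with doublets kept, the alternatives run for them. The cause of these changes was not tested. The block is formed from library numbers in order, since no label pairs the groups' replicates. Members under 10 CPM and classes of few nuclei, such as vascular-like, rest on few counts.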

Other observations

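Male mate 9 was the highest of 40 animals for 7 of the 49 members tested over all nuclei, more than any other animal, and male mate 2 was the lowest for 14 of 49. The like counts over all genes were not made, so these are not shown to be particular to the members. Male mate 9 had 4457 nuclei, a median of 1489 UMIs, a mean mitochondrial share of 0.593%, 1.57% vascular-like nuclei and 5.61% glutamate neuron-like nuclei, within the ranges of the other animals (median 0.513% mitochondrial and 0.758% vascular-like). Its Hspb1 level over all nuclei was 22.47 CPM, against a median of 2.814 CPM over animals. Male mate 2 had a mean mitochondrial share of 0.422%.

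By the number of classes called with a negative slope on Hspa8 of the other classes, ENSMOCG00000005083 came first (11 of 14 classes, median slope -0.79), followed by Frg1 (10 of 13 classes, median slope -1.13), Zranb2 (10 of 16, -0.66), Tardbp (10 of 16, -0.55) and Srsf11 (10 of 16, -0.53). Over all genes and both directions 7484 pairs were called, and 1452 with depth and mitochondrial share as covariates.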
